A study of Homo sapiens with 6 samples.

Results

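The genes described here are 10 of the 57914 rows in a gene expression table of A375 cells, an established human melanoma line. They are 9 intermediate filament genes, chosen by name as nestin (NES), vimentin (VIM), synemin (SYNM), alpha-internexin (INA), the light and medium neurofilament chains (NEFL, NEFM) and the simple keratins KRT7, KRT8 and KRT18, together with the filament linker plectin (PLEC). The cells were stained with Aldefluor, a substrate that becomes a fluorescent product retained in cells with aldehyde dehydrogenase (ALDH) activity, and sorted by flow cytometry. The 5% with the strongest signal form the ALDH_High group and the 5% with the weakest signal the ALDH_Low group, with 3 libraries each, all untreated otherwise and from the same line. Total RNA was used for stranded mRNA libraries, and nothing in the labels says that the libraries of a group came from separate cultures, so the p-values below measure the spread between these libraries, which may be technical.

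Intermediate filaments are rope-like polymers that give cells mechanical resilience, and their composition differs by cell lineage. Keratins form obligate pairs of a type I chain such as KRT18 and a type II chain such as KRT8 or KRT7, and are the filaments of simple epithelia. Vimentin, a type III protein, assembles on its own in mesenchymal cells and in melanocytes. Nestin, a type IV protein of neural stem and neural crest cells, does not assemble alone and co-polymerises with vimentin. Synemin, also type IV, joins vimentin or desmin filaments as a minor partner, while neurofilaments and INA are filaments of neurons. Plectin cross-links all of these to actin, microtubules, adhesions and the nuclear envelope.

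Total counts lay between 26692868 and 37830603 per library. In a principal component analysis of log2 CPM (counts scaled to library size), both groups lay apart on component 1, with 64.2% of the variance. Component 2, with 14.5%, placed ALDH_High library 1 at 49.1 and the other two of its group at -22.0 and -32.5. Of the melanocyte lineage markers, SOX10 (log2 fold change 1.79), S100B (4.28), MIA (1.64) and PRAME (0.47) were higher and MITF (-0.92) lower in ALDH_High, while PMEL did not pass. MLANA, TYR, TYRP1 and DCT never exceeded 11 counts. The 10 markers summed to 1090 to 1410 TPM in ALDH_High and 373 to 448 TPM in ALDH_Low. Most of these sums came from MIA (means of 650 and 203 TPM) and SOX10 (397 and 111 TPM). The part of this difference in the filament results was not tested. In these bulk samples, fewer cells of a type and less RNA per cell cannot be told apart.

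Promoter sequences for 5 of the 10 genes (NES, VIM, SYNM, INA and KRT8) were matched by symbol in RefSeq, build GRCh38.p14. KRT7, KRT18, NEFL, NEFM and PLEC were not matched. The 250 bases before the transcription start of 3 genes are shown, each on the strand of its gene and 5′ to 3′. They are shown because they contrast NES and SYNM, which were higher in ALDH_High, with VIM, which was abundant in both groups. The SYNM difference was small and near the threshold, as given below. The windows are chr1:156677408-156677657 (minus strand) for NES, chr10:17227991-17228240 (plus strand) for VIM and chr15:99104830-99105079 (plus strand) for SYNM. Capitals mark matches on either strand to GGGCGG (the GC box bound by SP1), TATAAA (the TATA box), ACAAT (the core of SOX motifs), CAGGTG (an E-box bound by ZEB and SNAI factors) or TGACTCA (the AP-1 site).
NES: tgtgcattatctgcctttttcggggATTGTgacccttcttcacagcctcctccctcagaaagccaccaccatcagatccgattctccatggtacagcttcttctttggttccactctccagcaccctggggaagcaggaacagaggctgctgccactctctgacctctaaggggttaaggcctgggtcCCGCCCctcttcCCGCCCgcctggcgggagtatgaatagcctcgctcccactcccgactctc
VIM: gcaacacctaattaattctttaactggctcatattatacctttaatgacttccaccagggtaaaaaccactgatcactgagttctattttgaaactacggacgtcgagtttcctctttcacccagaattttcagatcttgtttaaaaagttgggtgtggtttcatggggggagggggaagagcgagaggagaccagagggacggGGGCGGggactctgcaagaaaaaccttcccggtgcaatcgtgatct
SYNM: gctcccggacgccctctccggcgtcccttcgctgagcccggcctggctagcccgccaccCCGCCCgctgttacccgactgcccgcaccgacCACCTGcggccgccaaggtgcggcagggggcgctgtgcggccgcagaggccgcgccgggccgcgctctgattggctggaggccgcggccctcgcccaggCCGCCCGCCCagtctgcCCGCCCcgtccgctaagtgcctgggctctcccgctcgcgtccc

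The NES window holds 2 GC boxes and 1 SOX core, the VIM window 1 GC box, and the SYNM window 4 GC boxes, of which 2 overlap, and 1 E-box. INA, with 0 counts in every library, has 4 GC boxes in its window, which is not shown. The SOX core of NES lies 225 bases before the start. A GC box is present in 42.6% of 35116 RefSeq windows of the same length, a SOX core in 24.6% and the E-box in 17.5%. None of the matches found is thus rare on its own. The TATA box (10.7%) and the AP-1 site (4.2%) have no match in the windows shown. These shares count windows with at least 1 match, and how common 4 GC boxes in a window are was not tested. The RefSeq start of KRT8 lies 21393 bases from the start of the reference transcript of that gene in GENCODE 44, and its window is not shown.

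NES, SYNM and the 3 keratins differed between the groups, in opposite directions, while VIM, the most abundant of the 10 genes, did not pass the test. SYNM had the smallest difference of these 5 and passed in only 8 of 16 alternative analyses, while the others passed in all 16. NES was 6.52-fold higher in ALDH_High. KRT7 was 8.28-fold, KRT8 4.26-fold and KRT18 2.70-fold higher in ALDH_Low. Of the 10 genes, 8 had enough counts for the test, and 5 of those passed an adjusted p of 0.05 (edgeR quasi-likelihood test, Benjamini-Hochberg over all 17047 genes tested), 2 higher and 3 lower in ALDH_High. Over all genes tested, 20.6% passed, 10.8% higher and 9.83% lower. The median log2 fold change was -0.14 over the 8 genes and -0.013 over all genes tested.

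**Figure D1:**
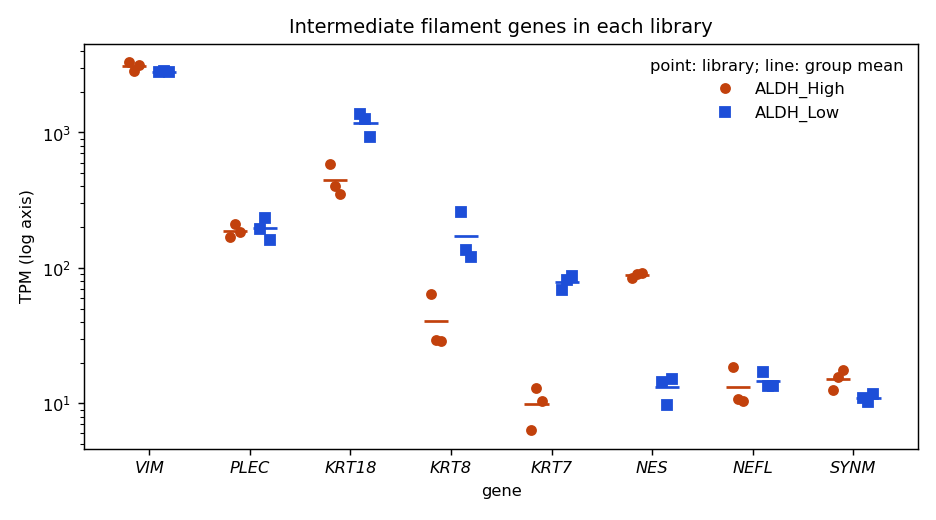
TPM (length-corrected transcript levels, on a log axis) of the 8 expressed genes in each library, with ALDH_High as circles, ALDH_Low as squares and group means as lines. NES lies between 84.9 and 92.0 TPM in ALDH_High and between 9.67 and 15.3 TPM in ALDH_Low, and KRT7, KRT8 and KRT18 lie the other way round.

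NES (ENSG00000132688, chromosome 1, 156668763 to 156677407, GRCh38) had 367, 351 and 351 CPM in ALDH_High, in the order of library 1, 2 and 3, against 58.7, 39.3 and 65.9 CPM in ALDH_Low. Every ALDH_High value lay far above the highest ALDH_Low value, and the ALDH_High libraries were close to each other. The means were 356 ± 9.22 and 54.6 ± 13.8 CPM (SD, n = 3), a log2 fold change of 2.71 (SE 0.18, edgeR adjusted p 9.49e-06). Only 2.68% of the genes tested had a larger absolute log2 fold change. An exact two-sided permutation test on log2 CPM had p = 0.1, the lower limit for 3 against 3. In the authors' deposited table, the NES coefficient is 0.55 for HIG and -2.17 for LOW, each against a reference group named 1A3 whose libraries are not analysed here.

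VIM (ENSG00000026025, chromosome 10, 17228241 to 17237593), the main filament of these cells, measured 4211, 3273 and 3572 CPM in ALDH_High against 3368, 3392 and 3566 CPM in ALDH_Low. The groups overlapped, and ALDH_High library 1 was the highest of the 6. VIM had a log2 fold change of 0.099 (SE 0.12, edgeR adjusted p 0.618), and 79.1% of the genes tested had a larger one in absolute size. On the TPM scale VIM stood between 2831 and 3290 in ALDH_High and between 2790 and 2820 in ALDH_Low, which ranked it between 28 and 58 among all genes of a library. The TPM values did not overlap, by a gap far smaller than the spread among the ALDH_High libraries.

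SYNM (ENSG00000182253, chromosome 15, 99098217 to 99135593) had 60.7, 69.0 and 75.5 CPM in ALDH_High against 50.4, 47.0 and 57.2 CPM in ALDH_Low. The groups did not overlap, but the lowest ALDH_High library and the highest ALDH_Low library lay close together. SYNM had a log2 fold change of 0.41 (SE 0.13, edgeR adjusted p 0.0448). It stayed above 0 in all 16 alternatives and passed in 8 of them, with adjusted p up to 0.169. The call was lost without ALDH_High library 2 (adjusted p 0.109), without ALDH_High library 3 (0.134), without ALDH_Low library 1 (0.117) and without ALDH_Low library 2 (0.168), all by edgeR.

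Of the neuronal filament genes, NEFL (ENSG00000277586, chromosome 8, 24950955 to 24956721) was expressed, at 40.5, 21.5 and 20.1 CPM in ALDH_High against 34.9, 27.6 and 29.4 CPM in ALDH_Low. ALDH_High library 1 had the highest value and libraries 2 and 3 the lowest, so the ALDH_Low libraries lay inside the range of ALDH_High. The log2 fold change of NEFL was -0.17 (SE 0.25, edgeR adjusted p 0.695). Without ALDH_High library 1 it was -0.54 and passed (edgeR adjusted p 0.0205), and without ALDH_High library 3 it was 0.028 (0.958). NEFM, which builds neurofilaments together with NEFL, had at most 2 counts in any library. INA, another neuronal filament protein, had 0 counts in every library. A count of 0 allows up to 3 counts, which covers counting error only. That is 0.112 CPM in ALDH_High library 1, the least deep one. This value uses the plain total count, without the scaling behind the other CPM values. The neuron markers RBFOX3, ELAVL3, ELAVL4, STMN2, MAP2, DCX and UCHL1 never exceeded 39 counts, while TUBB3, a tubulin that many tumour lines also express, stood between 368 and 498 TPM. SYP and SNAP25 reached at most 84 and 102 counts in any library and did not pass (log2 fold changes of 0.665 and -0.516). GAP43, a growth cone protein, was the neuron marker that passed, higher in ALDH_High (1.42).

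KRT7 (ENSG00000135480, chromosome 12, 52232520 to 52252186), a type II keratin of ducts and glands, had 2.96, 5.47 and 4.34 CPM in ALDH_High against 30.3, 35.7 and 40.6 CPM in ALDH_Low. All 3 ALDH_Low values lay far above the highest ALDH_High value. KRT7 had a log2 fold change of -3.05 (SE 0.22, edgeR adjusted p 1.53e-05), and only 1.93% of the genes tested had a larger absolute one. These counts were not at the detection floor in either group, with 75, 189 and 148 counts in ALDH_High.

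KRT8 (ENSG00000170421, chromosome 12, 52897187 to 52949954), the type II partner of KRT18, had 75.1, 31.1 and 30.1 CPM in ALDH_High against 288, 150 and 141 CPM in ALDH_Low. Library 1 was well above the other two in each group, and the groups did not overlap. KRT8 had a log2 fold change of -2.09 (SE 0.38, edgeR adjusted p 0.00343), and values of -2.64 (ALDH_High library 1 left out) and -1.67 (ALDH_Low library 1 left out) passed as well. KRT8 has many processed pseudogenes, and 50 rows of the table carry such names. Together they held between 6.05% and 35.4% of the summed counts of KRT8 and these copies, nearly all in KRT8P12. KRT8P12 itself had a log2 fold change of -0.38 (edgeR adjusted p 0.115). With the copies added to KRT8, an alternative chosen after seeing the data, the log2 fold change of KRT8 was -1.80 (edgeR adjusted p 0.00202).

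KRT18 (ENSG00000111057, chromosome 12, 52948871 to 52952906), the type I partner, had 643, 404 and 342 CPM in ALDH_High against 1417, 1314 and 1021 CPM in ALDH_Low. The groups did not overlap, and library 1 was the highest of each group. The log2 fold change of KRT18 was -1.43 (SE 0.22, edgeR adjusted p 0.00134). The 67 rows named as copies of KRT18 held at most 0.477% of the counts. In GENCODE 44 the gene models of KRT8 and KRT18 lie on opposite strands and overlap by 1084 bases, and how the counting treated strand is not given in the sources used here, so reads in that stretch are uncertain.

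PLEC (ENSG00000178209, chromosome 8, 143915153 to 143976734) had 1597, 1817 and 1541 CPM in ALDH_High against 1728, 2072 and 1525 CPM in ALDH_Low. Library 2 was the highest of each group, and the groups overlapped. The log2 fold change of PLEC was -0.10 (SE 0.13, edgeR adjusted p 0.646), and it was 0.021 without ALDH_Low library 2.

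The groups of CPM values did not overlap for 5 of the 8 tested genes, the same 5 that passed the test, against 37.8% of all genes tested. In the authors' deposited table, the difference between the high and the low coefficient is 2.73 for NES, 0.43 for SYNM, 0.12 for VIM, -0.084 for PLEC, -0.14 for NEFL, -1.41 for KRT18, -2.06 for KRT8 and -3.04 for KRT7. These authors' values come from a model that, per the file headers, also held groups named 1A3, CAS and OUT1A3, and they rest on the same ALDH_High and ALDH_Low libraries.

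**Figure D2:**
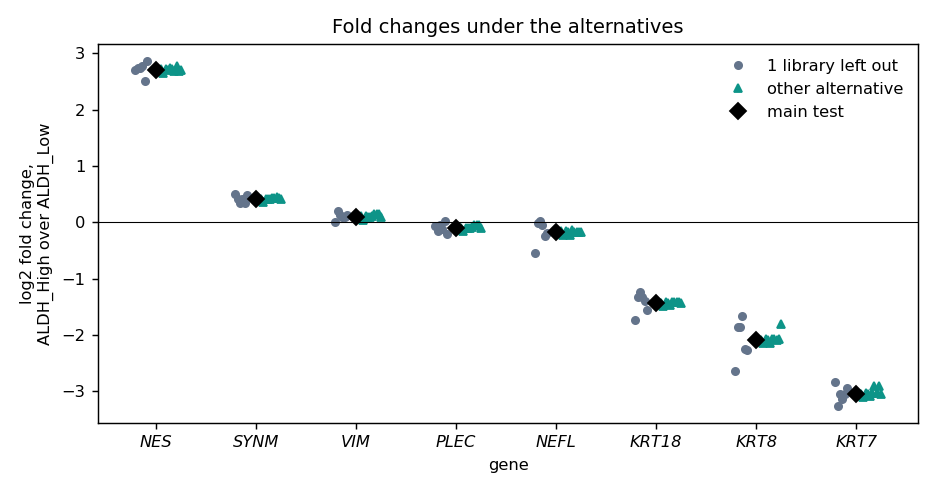
Log2 fold changes (ALDH_High over ALDH_Low) of the 8 tested genes in the main edgeR test (diamonds), with 1 library left out (circles) and under the other alternatives (triangles). NES stays between 2.52 and 2.86 and KRT7 between -3.25 and -2.84, while NEFL ranges from -0.54 to 0.028 across 0.

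TPM values are corrected for length, so that the levels of different genes can be set against each other within a library. The summed TPM of the 9 filament genes was 4057, 3394 and 3673 in ALDH_High and 4525, 4333 and 3960 in ALDH_Low, with overlapping groups (exact two-sided permutation p = 0.2). For these 9 genes, the make-up of the sum differed more than its size. VIM made up 81.1, 83.4 and 86.1% of the sum in ALDH_High and 61.8, 65.1 and 70.5% in ALDH_Low. KRT7, KRT8 and KRT18 together took 13.3 ± 2.72% of it in ALDH_High against 33.3 ± 4.44% in ALDH_Low (SD, n = 3), with 10.6% to 16.0% and 28.5% to 37.3% as the ranges. NES took 2.42 ± 0.289% in ALDH_High against 0.309 ± 0.0816% in ALDH_Low (SD, n = 3). Shares of VIM, NES, SYNM, KRT7, KRT8 and KRT18 did not overlap between the groups, and each reached an exact two-sided permutation p of 0.1, the smallest possible, or 0.133 adjusted over the 8 shares compared. The NEFL share overlapped (p = 0.9, permutation). Shares of a sum are tied to each other: a smaller keratin share raises that of VIM. They also depend on the genes summed, as does the size of the sum. With all filament genes except lamins in it, the mean sum was 4002 TPM in ALDH_High and 5353 TPM in ALDH_Low, without overlap. In that wider sum, the VIM share difference was 24.99 percentage points in place of 17.78. That of KRT18 was -10.96 in place of -15.58 and that of KRT7 -1.22 in place of -1.58.

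**Figure D3:**
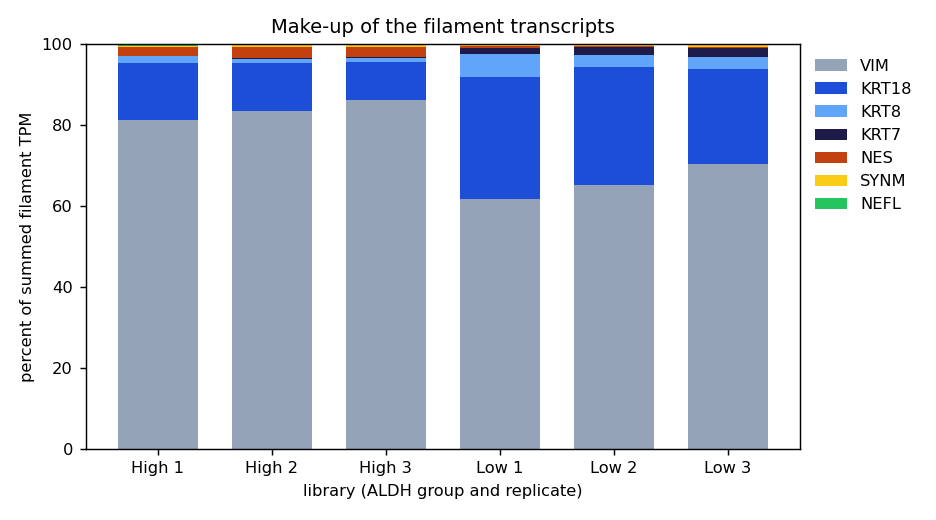
Percent of the summed TPM of the filament genes taken by each gene, 1 bar per library; NEFM, under 0.001% in every library, is not drawn. The keratin part is 10.6% to 16.0% in the ALDH_High libraries and 28.5% to 37.3% in the ALDH_Low libraries, and the NES part is the reverse.

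Genes that form a filament together were also compared by the log2 ratio of their TPM within a library, which does not depend on library scaling. The log2 ratio of NES to VIM was -5.28, -4.98 and -5.10 in ALDH_High and -7.60, -8.19 and -7.51 in ALDH_Low, a difference of 2.65. The log2 ratio of KRT7 to KRT18 was -6.52, -4.97 and -5.07 in ALDH_High and -4.31, -3.97 and -3.42 in ALDH_Low, a difference of -1.62, so KRT7 changed by more than KRT18. Both ratios had an exact two-sided permutation p of 0.1, the smallest possible, and 0.2 adjusted over the 4 ratios compared. Without ALDH_High library 1 the KRT7 to KRT18 difference was -1.12. For KRT8 to KRT18 the difference was -0.67 (p = 0.2, exact permutation; adjusted p = 0.267) and the groups overlapped; without ALDH_Low library 1 it was -0.44. For SYNM to VIM it was 0.32 (p = 0.3 before and after adjustment, exact permutation), again with overlap, and 0.50 without ALDH_High library 1. KRT18 exceeded KRT8 and KRT7 in every library: KRT8 reached between 0.0725 and 0.191 of the KRT18 TPM.

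Of 62 further filament genes, 22 had enough counts for the test, while 17 had 0 counts in every library. Of the 22, 3 were higher and 7 lower in ALDH_High and 12 did not pass. Over all genes tested, 10.8% were higher and 9.83% lower. The 22 genes had a median log2 fold change of -0.092. Leaving out ALDH_Low library 1 or 2 left 1 higher and 4 lower, and leaving out ALDH_High library 2 or 3 left 4 lower. KRT81, a type II hair keratin, had 75.9, 110 and 105 CPM in ALDH_High against 738, 1127 and 1200 CPM in ALDH_Low (difference of -3.39 on the log2 scale, SE 0.21, edgeR adjusted p 7.60e-06). At 742 TPM on average in ALDH_Low it exceeded KRT8, at 172 TPM. KRT81 has close paralogs in KRT86 and KRT83, which had at most 115 and 6 counts in any library, so the split of reads among them is uncertain. KRT80, a type II keratin of differentiating epithelia, had 109, 177 and 158 CPM in ALDH_High against 447, 604 and 491 CPM in ALDH_Low (log2 difference -1.80, SE 0.19, edgeR adjusted p 0.000120). With these and the other filament genes except lamins in the sum, the filament TPM was 4332, 3694 and 3979 in ALDH_High and 5399, 5528 and 5133 in ALDH_Low, without overlap (exact two-sided permutation p = 0.1, the smallest possible).

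The other 5 lower genes, KRT5, KRT34, KRT16, KRT17 and KRT32, all averaged below 2 CPM in both groups. KRT5, a keratin of basal epithelial cells, averaged 0.133 CPM in ALDH_High against 1.72 CPM in ALDH_Low (a log2 difference of -3.63, SE 0.53, edgeR adjusted p 0.000898). BFSP1, a lens filament protein, averaged 7.25 ± 0.642 CPM in ALDH_High, above 3.56 ± 0.568 CPM in ALDH_Low (SD, n = 3; 1.02 on the log2 scale, edgeR adjusted p 0.00588). KRT6B (1.37) and KRT9 (1.17) were the other 2 higher genes. The nuclear lamins did not pass, with log2 fold changes of -0.072 for LMNA, 0.11 for LMNB1 and 0.12 for LMNB2. KRT10, the most abundant further type I keratin, had a log2 fold change of -0.11 (edgeR adjusted p 0.693).

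**Figure D4:**
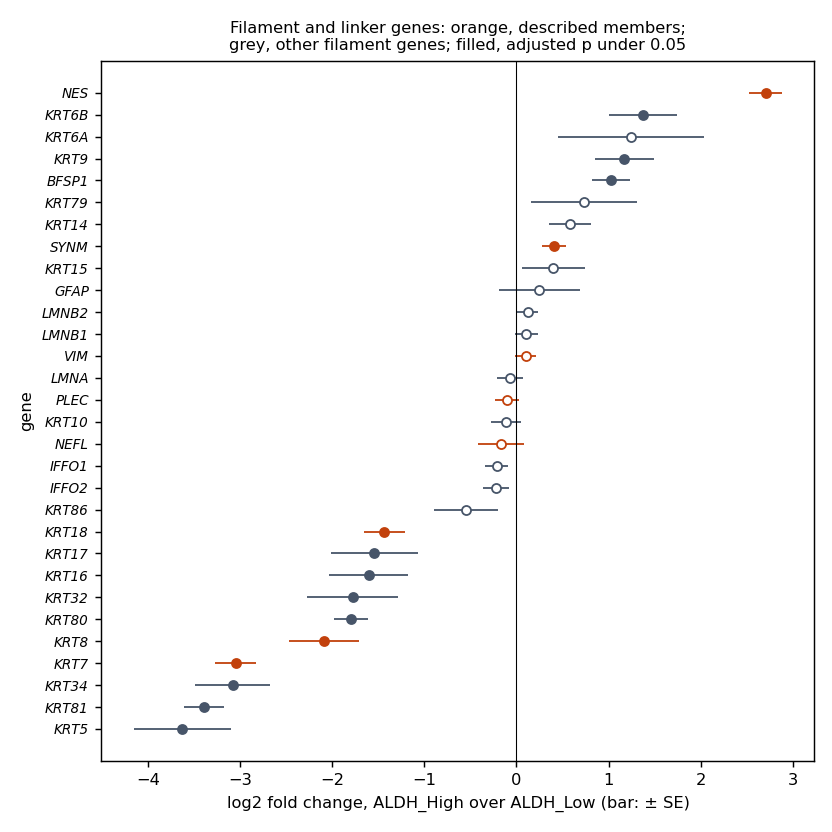
Log2 fold change with its standard error for each tested filament gene and PLEC, sorted by size, with the 8 genes described first in orange, the 22 further filament genes in grey and filled points for an edgeR adjusted p under 0.05. NES has the highest value, 2.71, and KRT5, KRT81, KRT34 and KRT7 the lowest, from -3.63 to -3.05.

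KRT7, KRT8, KRT18, KRT80, KRT81, KRT5 and KRT6B all lie in the type II keratin cluster of chromosome 12, where KRT7 starts 716 kb from KRT18. Within 250 kb of the span from KRT7 to KRT18, 10 keratin genes were tested, 6 lower and 1 higher in ALDH_High. Of 13 other genes tested there, 5 were lower, all on the KRT18 side, and 2 higher, both on the KRT7 side. Over all genes tested, 9.83% were lower and 10.8% higher. Within 250 kb of KRT18 alone, 11 genes including KRT8 were tested, 6 lower and 0 higher, with a median log2 fold change of -0.75. The other lower genes included ITGB7, an integrin beta chain (log2 fold change -2.82), and IGFBP6, a secreted IGF-binding protein (-1.50), both on the KRT18 side. GRASP, a scaffold protein, was higher (3.17) on the KRT7 side. EIF4B, a translation factor 57.4 kb from KRT18, had a log2 fold change of -0.10 (edgeR adjusted p 0.561). Around NES, 18 other genes were tested within 250 kb, 1 higher and 4 lower.

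**Figure D5:**
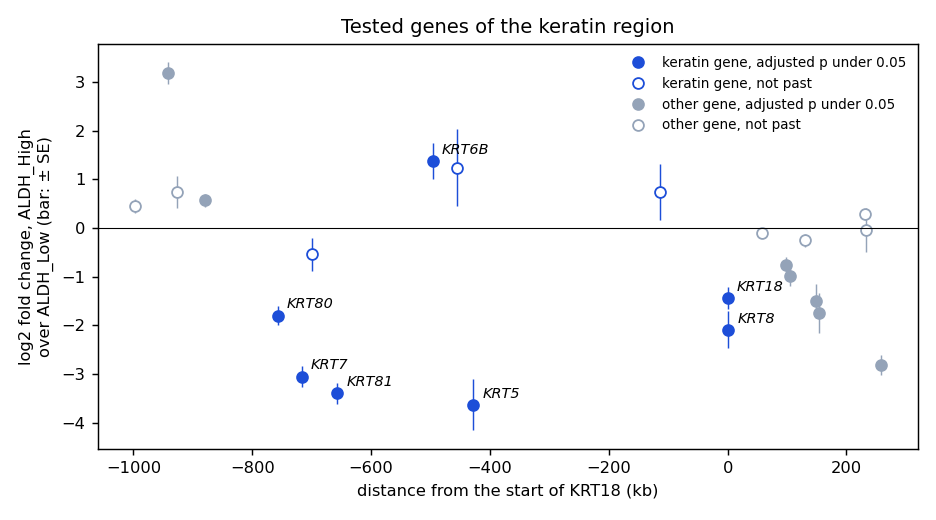
Log2 fold change with its standard error of the tested genes around the type II keratin cluster, against the distance of the outer start of each gene model from the start of KRT18 in kb; keratins are blue and filled points have an edgeR adjusted p under 0.05. Keratins past the threshold reach from -3.63 for KRT5 to 1.37 for KRT6B. The other tested genes all lie outside the stretch of tested keratins, on either side of it, with values above and below 0.

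Of 28 linker and anchor genes, 25 were tested, of which 3 were higher, 7 were lower and 15 did not pass, against 20.6% past the threshold over all genes. They had a median log2 fold change of -0.20. The plakins DST, MACF1, DSP and EVPL, relatives of PLEC, did not pass. Parts of the hemidesmosome, where PLEC joins keratins to integrin, were lower in ALDH_High. ITGB4, the integrin chain that binds PLEC, had 13.7, 5.67 and 5.01 CPM in ALDH_High against 118, 53.3 and 61.1 CPM in ALDH_Low (-3.27, SE 0.42, edgeR adjusted p 0.000409). COL17A1, a transmembrane collagen of the same junction, averaged 0.421 and 6.01 CPM (-3.88, edgeR adjusted p 0.000131). ITGA6, the alpha chain that pairs with ITGB4 but also with another beta chain, was higher in ALDH_High (0.54, edgeR adjusted p 0.0162). Library 1 was the highest of its group for ITGB4 as for KRT8.

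Of the desmosome genes, PKP2 (-1.60), PKP3 (-0.48) and DSG2 (-0.75) were lower and JUP, PKP4, DSC2 and DSC3 did not pass. VCL, vinculin, which synemin binds, was also lower (-0.94, edgeR adjusted p 0.000882). DMD, dystrophin, another partner of synemin, was higher (1.68, edgeR adjusted p 0.00128), and UTRN, its relative utrophin, was lower (-0.63, edgeR adjusted p 0.0383). At the nuclear envelope SYNE2 was higher (0.79), and SYNE1, SUN1, SUN2 and SYNE3, the last of which binds PLEC, did not pass. Without ALDH_Low library 2 only 1 linker or anchor gene was higher.

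All 23 genes that act on filament proteins were tested, 5 higher and 4 lower, against 10.8% higher and 9.83% lower over all genes. The median log2 fold change of the 23 was -0.10. The higher ones were CDK1, a mitotic kinase that phosphorylates vimentin and nestin (1.66, edgeR adjusted p 5.60e-05), AURKB, another mitotic vimentin kinase (0.60), CDK5R1, the activator of CDK5 (0.77), PAK1, a vimentin kinase (0.44), and CRYAB, a small heat shock protein at 0.519 CPM in ALDH_High (1.78). PRKCE, CASP6, CAPN2 and DYNC1H1 were lower. These counts moved with the libraries: by edgeR, 0 to 2 were lower when any library but ALDH_High library 1 was left out, and 2 or 3 were higher when any ALDH_Low library was. Among 15 mitosis genes, 9 were higher in ALDH_High and 6 did not pass, and their summed TPM was 2750 to 3250 against 1650 to 1800. CDK1, AURKB and PLK1 belong to these 15 and also to the 23 genes above, so the lists are not separate. The part of cell cycle phase in the NES and keratin results was not tested.

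SOX and class III POU factors are families that act on the neural enhancer of NES. Of 10 such genes, 5 had enough counts for the test and those 5 passed, 4 higher and 1 lower. Over all genes tested, 20.6% passed. SOX1, SOX3 and POU3F4 had 0 counts, and POU3F1 and POU3F3 at most 16. SOX2 (2.55), SOX10 (1.79), SOX11 (2.16) and POU3F2 (3.34) were higher in ALDH_High and SOX9 was lower (-1.79). POU3F2, also called BRN2, had 25.8, 37.1 and 42.0 CPM in ALDH_High against 3.60, 2.61 and 4.17 CPM in ALDH_Low (edgeR adjusted p 1.22e-05), without overlap. SOX2, SOX10, SOX11 and POU3F2 were thus high in the same 3 libraries as NES, in which SOX9 was low. Results of these libraries were known when the list was drawn up, so the list is not independent evidence of a direction.

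The transcription factors of the epithelial to mesenchymal change, for which VIM and the simple keratins often serve as readouts, showed no common direction. All 7 were tested: TWIST1 (0.82) and PRRX1 (3.17) were higher, TWIST2 was lower (-0.88), and ZEB1, ZEB2, SNAI1 and SNAI2 did not pass. Over all genes tested, 20.6% passed. PRRX1 averaged 63.4 ± 9.26 CPM in ALDH_High against 7.02 ± 0.286 CPM in ALDH_Low (SD, n = 3; edgeR adjusted p 3.47e-06).

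Markers of other cell types were also read. Of 10 epithelial markers, 8 were too low for the test and never exceeded 38 counts, among them EPCAM, CDH1 and KRT19, the last at 0 counts in ALDH_High. Their summed TPM was 4.74 to 17.7 in ALDH_High and 2.64 to 4.58 in ALDH_Low, and CLDN4 made up most of it. Without CLDN4 the sum was 0.534 to 1.20 TPM in ALDH_High and 1.11 to 1.96 TPM in ALDH_Low, with overlap. CLDN4 was higher in ALDH_High (2.18, edgeR adjusted p 0.0179). By edgeR, its value was 1.17 without ALDH_High library 1 (adjusted p 0.0205), and the call was lost without ALDH_Low library 2 (0.0716) and without ALDH_Low library 3 (0.0849), alternatives chosen after seeing the data. White blood cell markers summed to 11.3 to 19.8 TPM in ALDH_High and 48.4 to 62.2 TPM in ALDH_Low, nearly all from CD68, a lysosomal protein also made by other cells, and CD14 (-1.96) was lower like CD68 (-1.86), while PTPRC, CD3D and CD3E had at most 6 counts and MS4A1 and HBB had 0. The 8 fibroblast markers summed to 11.8 to 14.7 and 9.74 to 12.1 TPM. PDGFRB was the fibroblast gene that passed, lower in ALDH_High (-0.80).

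The genes whose log2 CPM followed NES most closely over the 6 libraries, among 9534 genes tested with a mean of at least 10 CPM, were COL18A1, GLB1L2, CKB, HLA-DRA and DYNLT3, with Pearson r between 0.998 and 0.999. For VIM they were TUBB, DNAJC18, RBM4, ABHD17A and TUBGCP2, with r between 0.965 and 0.978. In a design of 2 groups such values reflect the group difference for NES and the spread within groups for VIM, and they are given as a description. Among the filament genes themselves, r with NES was 0.89 for SYNM, 0.41 for VIM, -0.97 for KRT7, -0.92 for KRT18 and -0.86 for KRT8.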

How the data were processed

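RNA was sequenced from 3 ALDH_High and 3 ALDH_Low libraries, made from 500 ng of total RNA with a stranded mRNA kit per the labels' protocols. The submitters' processing notes name GRCh38, FastQC 0.11.3, STAR 2.5.1b, HTSeq 0.6.1 and DESeq2, without role or order; the annotation release is not given in the sources used here. The authors deposited estimated counts per gene, rounded to whole numbers: between 133 and 177 genes per library had a count of 0 beside a TPM above 0. The authors also deposited TPM, with gene lengths that are not stated, and coefficients from a DESeq2 model, which are log2 values held here as a score column per the file headers, since cells of some other rows are shifted; the rows used passed a check of coefficient, SE and Wald statistic. Rows with an identifier but no symbol held at most 0.0267% of counts and stayed in.

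Genes kept by filterByExpr (17047) were scaled with TMM; edgeR 4.0.16 then compared the groups with its quasi-likelihood test (glmQLFit, glmQLFTest; two-sided, group only). The Benjamini-Hochberg adjustment ran over every tested gene, with 0.05 as threshold; CPM uses TMM-scaled library sizes, and SE is the log2 fold change over the square root of F. On simulated data of 16640 genes the test recovered 100 of 102 genes changed by a log2 of 2 (98.0%) and 72 of 98 changed by a log2 of 1 (73.5%). Beside these true calls stood 15 false ones. The changed genes all averaged at least 1 CPM, so genes below that were not covered. They were also far fewer than the 3513 genes called in the real data. Single values were compared by exact permutation tests.

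Alternatives were DESeq2 size factors, upper-quartile factors, no filter, a minimum of 10 counts in each library, the replicate block, each library left out, DESeq2 1.42.0 with its filtering set for 0.05, limma 3.58.1 on log2(TPM + 1) or log2(TPM + 0.1) at a mean TPM of at least 1, and on log2(TPM + 1) without that filter. The DESeq2 setting was changed from its default of 0.1 after the calls, and an earlier count made from these data, had been seen; no call among the 10 genes moved. Positions are from GENCODE 44 on GRCh38, matched for 99.1% of genes tested. Deviations from the group means correlated by 0.15, 0.076 and 0.11 between libraries of the same number, which were therefore not treated as pairs. The genes and lists were chosen with earlier results of these data known. Named are all 10 genes, listed genes past the threshold, and the 5 genes most correlated with NES and with VIM. Of the mitosis genes past the threshold, only CDK1 and AURKB are named. Genes near the keratins, listed genes that did not pass and GRASP, ITGB7, IGFBP6 and EIF4B were chosen after their values were seen.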

Additional observations from a re-analysis of the deposited data

How the results depend on the processing

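NES, KRT7, KRT8 and KRT18 kept their direction and passed in all 16 alternatives, and VIM passed in 0 of them (edgeR adjusted p 0.618 with all libraries, log2 fold change between 0.01 and 0.19). SYNM lost its call with upper-quartile factors (log2 fold change 0.36), in limma on log2(TPM + 1) and log2(TPM + 0.1) at a mean TPM of at least 1 (0.43 and 0.45), on log2(TPM + 1) without that filter (0.43), and in 4 fits that left out a library (range over the 6 such fits 0.35 to 0.51); in these the count of higher genes among the 10 was 1 in place of 2. Over the fits that left out a library, NEFL ran from -0.54 to 0.028, PLEC from -0.20 to 0.021, and the NEFL share difference from -0.039 to 0.047 percentage points, negative without ALDH_High library 1 (-0.039) and without ALDH_Low library 2 (-0.0034); the higher genes among the 10 numbered 1 to 2. NEFL without ALDH_High library 1 (-0.54) passed. Over all genes, the unfiltered limma fit on log2(TPM + 1) gave 2006 calls against 3513, 1155 higher and 851 lower; with the filter the lower genes were 1047, and 1051 at a pseudocount of 0.1. Lower genes ran from 1073 (without ALDH_High library 2) to 2049 over the fits with a library left out. The cause was not tested. The replicate block gave 3748 genes, 3330 of them shared with the 3513, and 5 of the 10 genes, the same number. It changed no other call given here for them. With the block, the edgeR adjusted p was 6.96e-06 for KRT8, against 0.00343 without it. For KRT18 it was 8.48e-05, against 0.00134. Of the other values, 131 stayed, 18 moved, 2 turned direction and 2 lost a call. Depth limits NEFM and INA, and KRT5, KRT16, KRT17, KRT32 and KRT34 in ALDH_High.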

Other observations

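Libraries numbered 1 had the highest level of their group for KRT8, KRT18, ITGB4 and COL17A1 in both groups, and for KRT5 in ALDH_Low. KRT7 went the other way, with its lowest value in library 1 of each group, at 2.96 CPM in ALDH_High and 30.3 CPM in ALDH_Low. CLDN4, an epithelial tight junction gene, was at 23.6 CPM in ALDH_High library 1 against 6.25 and 5.13 CPM in libraries 2 and 3. VIM-AS1, an antisense row at the VIM locus, had 274, 226 and 279 counts in ALDH_High and 156, 206 and 81 in ALDH_Low (log2 fold change 0.88, edgeR adjusted p 0.0783), against at least 99199 counts of VIM. CKB, creatine kinase B, had a log2 fold change of 2.71 like NES, and HLA-DRA, an MHC class II chain, one of 3.54.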
